A study of Mus musculus with 2 samples.

Results

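Reads over 41 collagen genes of the mouse were examined in the non-polyadenylated (NPA) RNA of embryonic stem cells (ESCs) and of neuronal progenitor cells (NPCs) derived from them. The 41 genes are those among the 22380 protein-coding genes of GENCODE release M1, which annotates mm9, whose symbol is that of a collagen chain, without *Col4a1* and *Col4a2*. That pair, the main chains of basement membranes, is given for comparison only. *Col21a1* and *Col26a1*, 2 names of the class list, have no gene under that symbol in this annotation. The ESCs were R1 cells, a male mouse line, taken at passage 18 and grown with leukemia inhibitory factor (LIF) and serum on a layer of fibroblasts from mouse embryos, whose division had been stopped with mitomycin C. For the NPCs, R1 cells were kept for 4 days without LIF as embryoid bodies, plated on poly-L-ornithine and fibronectin in medium with insulin, transferrin and selenium, and gathered on day 7. Each cell type gave 1 strand-specific library, so nothing checks a difference against the spread between cultures, and every ratio compares these libraries and not the cell types. The labels do not say whether the fibroblasts were removed before the RNA of the ESCs was taken, and in a bulk sample fewer cells of a type cannot be told apart from less RNA per cell.

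Collagens are the main structural proteins of the extracellular matrix. Their chains wind around each other into a triple helix, in which glycine, the smallest residue, must recur at a fixed interval (Gly-X-Y), and the chains of the classical fibrillar genes are encoded by many short exons that hold whole Gly-X-Y units. Fibrillar collagens form the banded fibres of skin, bone and cartilage, network collagens form sheets in basement membranes, FACIT collagens (fibril-associated collagens with interrupted triple helices) sit on the surface of fibrils, and the others include beaded filaments, anchoring fibrils, transmembrane chains and the multiplexins, which carry an anti-angiogenic domain at their C-terminus. Collagen mRNAs carry poly(A) tails, and an NPA fraction is what remains after RNA with such tails has been taken away.

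The libraries held 4271306 reads in ESCs and 4399729 in NPCs after the filters of the authors, and counts were scaled by these totals to RPM, on which scale 1 read is worth 0.234 in ESCs and 0.227 in NPCs. Collagen reads are few, so exact 95% Poisson intervals are given for counts and conditional binomial intervals for ratios, and since the reads carry no molecular identifiers, all intervals cover counting error only. The labels were checked against marker lists. In ESCs 9 pluripotency genes had 9437 reads and in NPCs 2686, with *Pou5f1* at 2623 and 724 reads. Of the markers of neural progenitors, 10 genes had 289 and 428 reads, and *Sox1* has no gene under that symbol in this annotation. Of the 6 that could be compared, 3 were more than 2-fold higher in NPCs, all at low counts. These were *Pax6* with 1 and 12 reads, *Pax3* with 0 and 13 and *Zic1* with 1 and 22. Those with the most reads lay within 2-fold, *Otx2* at 109 and 161, *Nes* at 66 and 121 and *Tubb3* at 109 and 87. Markers of extraembryonic endoderm, a yolk sac lineage that the labels do not name, moved further. Its 15 genes had 2779 and 39009 reads, and 13 of the 14 compared were more than 2-fold higher in NPCs. Most of these reads lay on laminin genes, *Lama1* with 427 and 10346, *Lamb1* with 585 and 10367 and *Lamc1* with 1256 and 12622. Of the transcription factor genes in the list, *Gata4* had 61 and 1179 reads, *Gata6* 8 and 459 and *Sox17* 8 and 383. Among all 12711 protein-coding genes with at least 10 reads in the libraries together, 26.2% were more than 2-fold higher in NPCs. The part that endoderm cells took in the collagen reads of the NPC library was not tested.

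The helical exons set what these libraries could record of collagen mRNAs, and 6 windows are shown to make visible where a read could and could not lie. In each, capitals mark the codons GGN that encode glycine in the reading frame, and the letters run 5′ to 3′ on the gene strand of mm9. The first is the first exon of 54 nt inside the helix of *Col1a2*, exon 8 at chr6:4465481-4465534 on the plus strand, and the second is that of *Col2a1*, exon 6 at chr15:97828976-97829029 on the minus strand. The third is an exon of 45 nt of *Col1a2*, exon 7 at chr6:4465210-4465254, which is shorter than a read, and the fourth is a still shorter one of *Col18a1*, exon 8 at chr10:76542006-76542032 on the minus strand. The fifth and the sixth are the 48 nt at which reads of *Col1a2* and *Col18a1* began most often in coding sequence, at chr6:4486012-4486059 and chr10:76559029-76559076.
Col1a2 exon 8: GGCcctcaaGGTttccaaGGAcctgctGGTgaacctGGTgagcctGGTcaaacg
Col2a1 exon 6: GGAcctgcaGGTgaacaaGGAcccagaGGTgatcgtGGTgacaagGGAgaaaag
Col1a2 exon 7: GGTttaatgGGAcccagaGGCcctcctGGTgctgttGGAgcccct
Col18a1 exon 8: GGTgaccctGGTgaagatGGGagaccg
Col1a2 exon 44: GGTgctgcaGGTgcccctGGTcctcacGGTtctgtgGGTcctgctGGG
Col18a1 exon 2: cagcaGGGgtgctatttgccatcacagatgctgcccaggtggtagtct
The 54-nt exons hold 6 glycine codons each and the 45-nt exon holds 5, in unbroken register. The reads were aligned without splicing and carry 48 nt of sequence, so a 54-nt exon offers only few places for a whole read and a 45-nt exon offers none. No read of either library overlapped exons 7 and 8 of *Col1a2*, and a single NPC read each overlapped exon 6 of *Col2a1* and exon 8 of *Col18a1*. The longer exon 44, by contrast, had 5 reads in ESCs and 12 in NPCs that began at the window shown.

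Short exons were far more common in collagen genes than elsewhere. The longest coding mRNAs of the 41 genes had 1912 exons, of which 413 (21.6%) were shorter than 48 nt and 511 (26.7%) had 48 to 59 nt. Over all protein-coding genes these shares were 3.69% and 3.36% of 205299 exons. A length of exactly 54 nt was found for 466 collagen exons (24.4%, against 0.564% of all coding exons), and one of 45 nt for 153 (8.00%, against 0.292%). A whole read could begin at a median of 63.5% of the mRNA positions of a collagen gene, with a range from 41.3% in *Col16a1* to 96.3% in *Col8a1*, and at a median of 85.7% over 22372 protein-coding genes. *Col8a1* and *Col10a1* encode short-chain network collagens whose helix lies in a single large exon, whereas 47 of the 119 exons of *Col7a1*, the chain of the anchoring fibrils of skin, were shorter than a read. Runs of at least 5 consecutive Gly-X-Y units, called the helix here, made up 35.5% of the mRNA, and 35.4% of their positions could begin a whole read, against 73.9% of the other coding positions. Levels of *Col18a1* and of the genes next to it are therefore given both per length and per possible start.

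**Figure D1:**
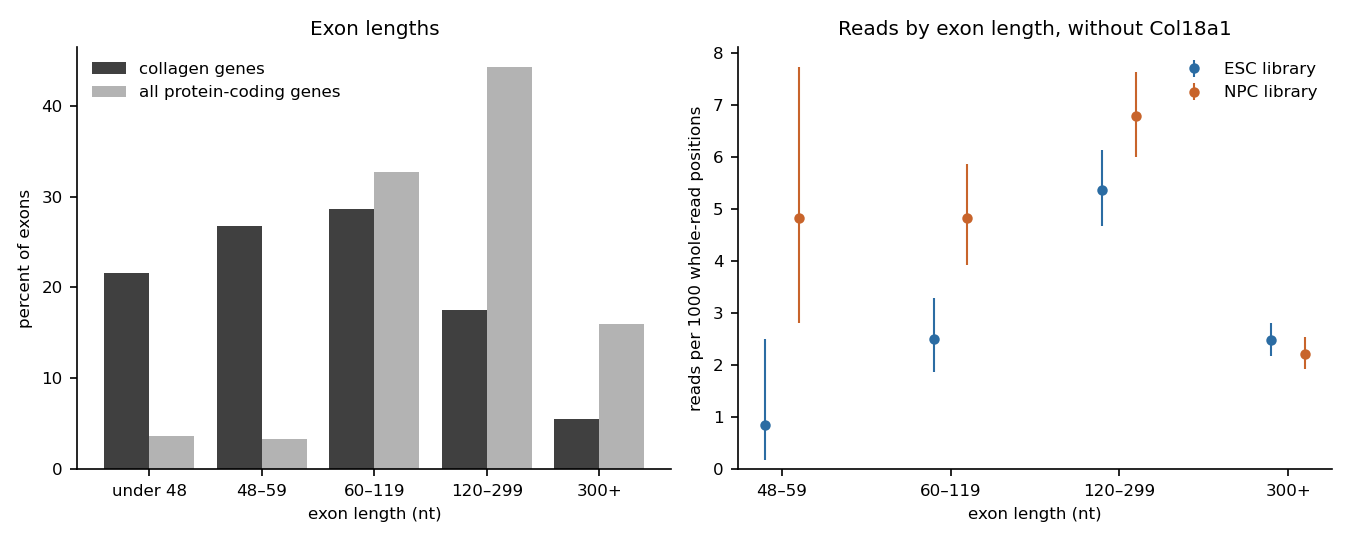
Left, percent of exons (vertical axis) in 5 classes of exon length in nt (horizontal axis) for the collagen genes (dark bars) and all protein-coding genes (light bars). Right, reads lying whole in an exon per 1000 positions where a whole read can begin, for 40 collagen genes without Col18a1, with exact 95% Poisson intervals and not scaled for depth. Exons of 48 to 59 nt had 0.853 (0.176 to 2.49) reads per 1000 positions in ESCs and 4.83 (2.82 to 7.74) in NPCs, from only 3 and 17 whole reads. Those of 300 nt or more had 2.48 and 2.22, from 239 and 214. The values are summed over genes and so also depend on which genes had reads.

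Over the 41 genes lay 1588 reads in ESCs, 0.0372% (0.0354 to 0.0391%) of the library, and 1405 in NPCs, 0.0319% (0.0303 to 0.0336%), with Clopper-Pearson intervals. The pair *Col4a1* and *Col4a2* had 1177 reads in ESCs and 30349 in NPCs. The 41 genes thus held 57.4% of all collagen reads in ESCs and 4.42% in NPCs. Summed, their NPC to ESC ratio in RPM was 0.859 (0.799 to 0.923), that of the type IV pair was 25.0 (23.6 to 26.6), and these intervals lie apart. A single gene, *Col18a1*, carried 63.4% of the reads of the 41 genes in ESCs and 51.2% in NPCs. Without *Col18a1* the sums were 581 and 685 reads, and the ratio was 1.14 (1.02 to 1.28), but it lay between 0.881 and 0.913 under the 3 other scalings tried and at 0.920 (0.812 to 1.04) with each start position counted once. Without *Col1a2* and *Col2a1* as well, the sums were 487 and 408 reads and the ratio was 0.813 (0.711 to 0.930). For all 41 genes the other scalings gave 0.661 to 0.685, below 1 as well. The side of 1 on which the sum without *Col18a1* lay depended on the scaling. When scaled by reads over coding exons, its interval of 0.816 to 1.02 spanned 1. In each library 34 of the 41 genes had at least 1 read, and *Col19a1*, a FACIT chain, had no exon read in either. A count of 0 allows up to 3 reads. The sequence of the reads occurred once in mm9 for 95.3% of the collagen reads in ESCs and 96.7% in NPCs.

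**Figure D2:**
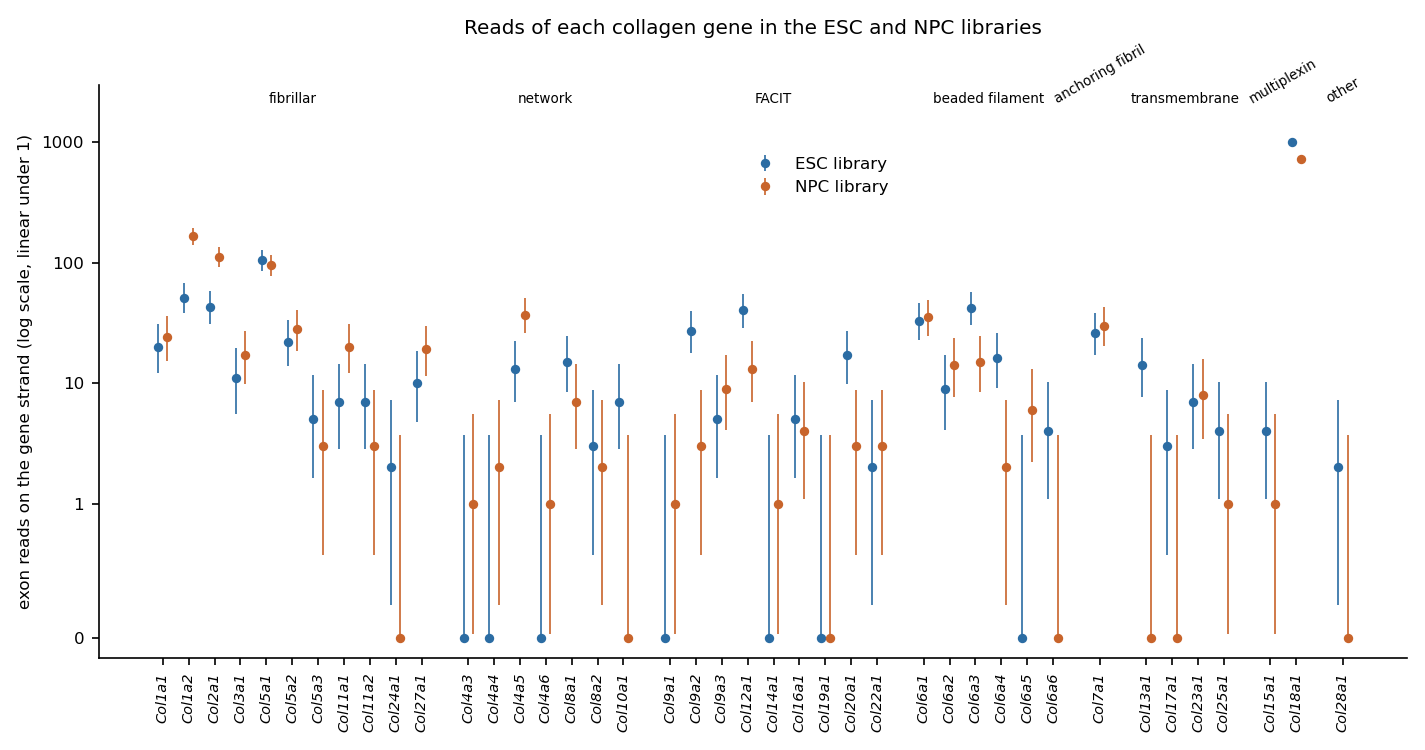
Exon reads on the gene strand (vertical axis, log scale that is linear under 1) for each of the 41 collagen genes (horizontal axis) grouped by class, in the ESC (blue) and NPC (orange) libraries, with exact 95% Poisson intervals. Col18a1 had 1007 and 720 reads, and no other gene passed 165 in either library.

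Of the 41 genes, 23 had at least 10 reads in the libraries together and were compared. Between the libraries, 4 were more than 2-fold higher in NPCs, 8 were more than 2-fold higher in ESCs and 11 lay within 2-fold, counted on log2 ratios with 1 read added in each library. Among all 12711 protein-coding genes with this many reads, 26.2% were more than 2-fold higher in NPCs and 11.6% more than 2-fold higher in ESCs. Those higher in NPCs were *Col1a2*, *Col2a1*, *Col4a5* and *Col11a1*, and those higher in ESCs were *Col6a3*, *Col6a4*, *Col8a1*, *Col9a2*, *Col11a2*, *Col12a1*, *Col13a1* and *Col20a1*. Over the 23 collagen genes the log2 ratio (NPC over ESC) had a median of 0.13 (-1.04 to 0.54), against 0.40 (0.38 to 0.42) over all 12711, a difference of -0.28, and setting the 0 of *Col13a1* to 3 reads left the median at 0.13. Low counts pass a fold more often, and among the 4732 genes with 10 to 99 reads the background was 26.6% for NPCs and 19.5% for ESCs, with a median of 0.20. In that range were 19 of the 23 collagen genes, with 2 higher in NPCs and 8 in ESCs. Scaling decides the sign of a collagen gene near 1. The median of all genes moved from 0.40 to between 0.03 and 0.08 under 3 other scalings, the collagen median moved to between -0.25 and -0.20, and *Col1a1*, *Col5a2*, *Col6a1*, *Col7a1* and *Col23a1* changed sign. Under the median of ratios and the trimmed mean the split was 2 genes higher in NPCs and 8 in ESCs, while 16.4% and 16.0% of all genes were higher in NPCs and 17.1% and 17.6% in ESCs. *Col2a1* and *Col11a1* then lay within 2-fold. With each start position counted once, 3 collagen genes were higher in NPCs and 6 in ESCs, and the background fell to 13.0% for NPCs and 11.5% for ESCs. The 17 genes with 1 to 9 reads held 41 reads in ESCs against 26 in NPCs, and were not called.

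**Figure D3:**
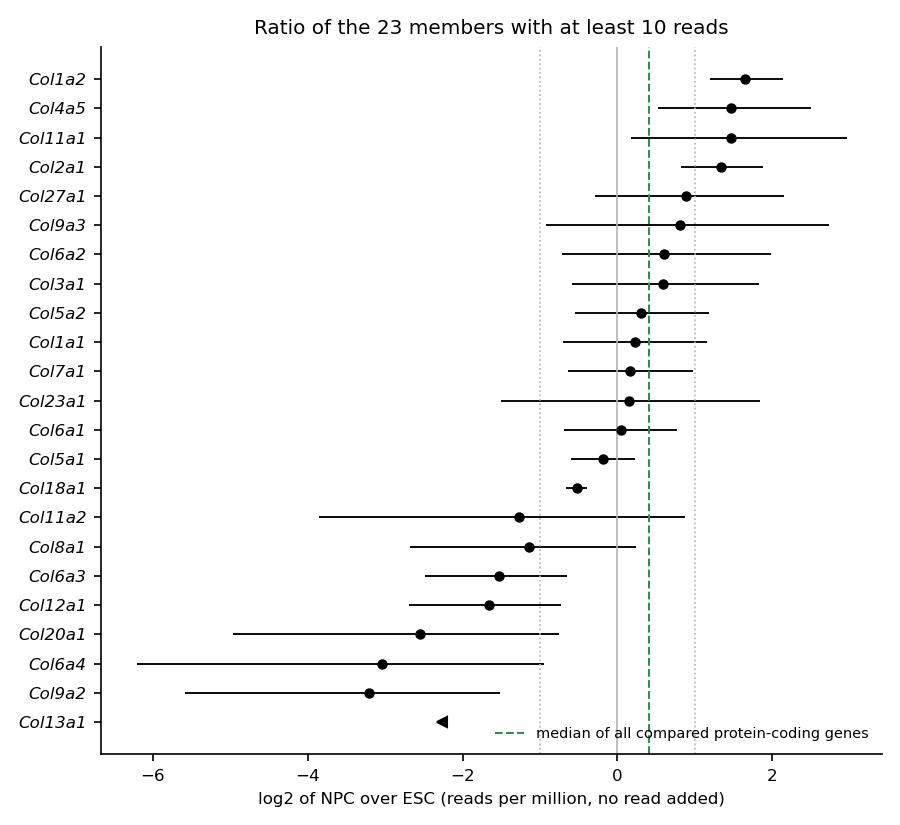
Log2 of the NPC to ESC ratio in RPM (horizontal axis, no read added) for the 23 collagen genes compared (vertical axis), with conditional binomial 95% intervals, 2-fold limits (dotted) and the median of all protein-coding genes (dashed). The arrow marks Col13a1, which had 14 reads in ESCs and 0 in NPCs, with the 0 set to 3 reads. The intervals of 4 genes lie above 0 and those of 6 below it, and all others with an interval span 0.

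The fibrillar class had 11 genes, 283 reads in ESCs and 486 in NPCs, a ratio of 1.67 (1.44 to 1.94), which was 1.28 to 1.33 under the other scalings. Without *Col1a2* and *Col2a1* the class had 189 and 209 reads, a ratio of 1.07 (0.878 to 1.31). Of the 9 that were compared, 3 were more than 2-fold higher in NPCs and 1 in ESCs, and their median log2 ratio was 0.54. *Col1a2* (ENSMUSG00000029661.9, chr6:4454814-4491543, plus strand) encodes the second chain of type I collagen, the collagen of bone and tendon. It had 51 reads in ESCs and 165 in NPCs, a ratio of 3.14 (2.28 to 4.39). Its partner *Col1a1* (chr11:94797538-94814356, plus strand), which supplies the more abundant chain of the same molecule, had 20 and 24 reads, a ratio of 1.17 (0.617 to 2.22) whose interval ends below that of *Col1a2* begins. Scaled by the length in kb of all annotated exons merged (RPKM), *Col1a2* reached 0.983 in ESCs and 3.09 in NPCs, and *Col1a1* 0.713 and 0.831. That length was 12145 nt for *Col1a2* and 6563 nt for *Col1a1*, against 5347 and 5930 nt in their longest coding mRNAs. *Col2a1* (ENSMUSG00000022483.9, chr15:97806033-97835155, minus strand), the chain of cartilage and vitreous collagen, had 43 and 112 reads, a ratio of 2.53 (1.76 to 3.68). The type XI chain *Col11a1*, which joins type II in cartilage fibrils, was also higher in NPCs, with 7 and 20 reads and a ratio of 2.77 (1.13 to 7.76). Its companion *Col11a2* had 7 and 3 reads and was the fibrillar gene higher in ESCs, with a ratio of ESC to NPC of 2.40 (0.549 to 14.4) that spans 1.

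The other fibrillar genes lay within 2-fold. *Col5a1*, which starts and limits the width of type I fibrils, had 105 reads in ESCs and 95 in NPCs, a ratio of 0.878 (0.658 to 1.17), and *Col5a2* of the same molecule had 22 and 28. *Col3a1*, the collagen of vessels and hollow organs, had 11 and 17 reads. *Col27a1*, a fibrillar chain of developing cartilage, had 10 and 19 reads in exons and 10 and 28 in introns. Reads of *Col5a3* (5 and 3) and *Col24a1* (2 and 0) were too few to compare.

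The network class other than the left-out pair had 7 genes with 38 reads in ESCs and 50 in NPCs. *Col4a5* (ENSMUSG00000031274.9, chrX:137909928-138123778, plus strand), a type IV chain of the basement membranes of kidney and muscle whose loss causes Alport syndrome, had 13 and 37 reads, a ratio of 2.76 (1.44 to 5.66). That interval lies below the 23.5 (22.0 to 25.2) of *Col4a1* and the 29.0 (26.0 to 32.5) of *Col4a2*. *Col4a6*, which begins head to head with *Col4a5* at a distance of 1308 bases, had 0 and 1 exon reads and 6 and 11 intron reads. *Col4a3* and *Col4a4*, the chains of the glomerular network, start 71 bases apart and had 0 and 1 and 0 and 2 reads. The short-chain collagen *Col8a1*, found in the subendothelium and cornea, had 15 reads in ESCs and 7 in NPCs, with a ratio of ESC to NPC of 2.21 (0.847 to 6.40) that spans 1. *Col8a2* had 3 and 2 reads, and *Col10a1*, the collagen of hypertrophic cartilage, had 7 reads in ESCs and 0 in NPCs, with a conditional binomial lower limit of 1.48 for ESC over NPC.

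Of the FACIT genes, *Col9a2*, *Col12a1* and *Col20a1* were higher in the ESC library. The 9 genes had 96 reads in ESCs and 37 in NPCs, a ratio of NPC to ESC of 0.374 (0.249 to 0.552), and of the 4 compared 3 were more than 2-fold higher in ESCs and 0 in NPCs. Without these 3 genes the class had 12 and 18 reads, a ratio of 1.46 (0.664 to 3.31) that spans 1. *Col9a2* (chr4:120711990-120727927, plus strand), a chain of the type IX collagen that decorates cartilage fibrils, had 27 and 3 reads, 9.27-fold (2.85 to 47.7) higher in ESCs, and its ESC reads began at 21 positions. Of the other type IX chains, *Col9a1* had 0 and 1 reads and *Col9a3* 5 and 9. *Col12a1*, which binds type I fibrils in tendon and ligament, had 40 and 13 reads, 3.17-fold (1.66 to 6.46) higher in ESCs. *Col20a1* had 17 and 3 exon reads, 5.84-fold (1.69 to 31.1) higher in ESCs, beside 25 and 20 reads in its introns, and 8 of its 17 reads in ESCs crossed an exon border. *Col14a1* had 0 and 1 reads, *Col16a1* 5 and 4, and *Col22a1* 2 and 3 in exons with 24 and 10 in introns.

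The 6 genes of the beaded filaments of type VI collagen, a pericellular microfibril, had 104 reads in ESCs and 72 in NPCs, a ratio of 0.672 (0.491 to 0.916), and without *Col6a3* and *Col6a4* 46 and 55, a ratio of 1.16 (0.770 to 1.76). The chains that build the common form differed in their values. *Col6a1* had 33 and 35 reads, *Col6a2* 9 and 14, and *Col6a3* (chr1:92663435-92740529, minus strand) 42 and 15, 2.88-fold (1.57 to 5.60) higher in ESCs. The 3 chains that can replace the third lie side by side on chromosome 9. *Col6a4* had 16 and 2 reads, 8.24-fold (1.94 to 73.9) higher in ESCs. *Col6a5* had 0 and 6 reads, with a conditional binomial lower limit of 1.14 for NPC over ESC, and *Col6a6* 4 and 0, with a lower limit of 0.680 for ESC over NPC that does not fix a direction.

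Among the transmembrane collagens, *Col13a1*, a chain of the neuromuscular junction and of cell adhesion sites, had 14 reads in ESCs and 0 in NPCs. The ratio of ESC to NPC is 4.81 if the 0 is set to the 3 reads it allows, and its conditional binomial lower limit is 3.42. Its introns held 15 reads in ESCs and 1 in NPCs. *Col23a1* had 7 and 8 reads, *Col25a1*, the precursor of an amyloid plaque component, 4 and 1, and *Col17a1*, the hemidesmosome chain of the skin, 3 and 0. *Col7a1* had 26 and 30 reads, a ratio of 1.12 (0.640 to 1.97), and 7 of them in ESCs and 13 in NPCs crossed an exon border. *Col15a1*, the second multiplexin, had 4 and 1 reads, and *Col28a1* had 2 and 0.

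*Col18a1* (ENSMUSG00000001435.8, chr10:76514923-76629293, minus strand) encodes a proteoglycan of basement membranes from which endostatin is cut. It had 1007 reads in ESCs (946 to 1071) and 720 in NPCs (668 to 775), 1.44-fold (1.31 to 1.59) higher in ESCs. On the log2 scale NPC over ESC was -0.53, or -0.93 relative to the median gene, and lay within the 2-fold limit. Its reads began at 430 distinct positions in ESCs and 359 in NPCs. In RPKM, which divides RPM by the exon length in kb, it was the highest of the 41 genes in both libraries, at 33.6 RPKM (31.5 to 35.7) in ESCs and 23.3 RPKM in NPCs. The next in ESCs was *Col5a1* at 2.90 RPKM, 11.6-fold (9.48 to 14.3) lower, and the next in NPCs was *Col2a1* at 4.22 RPKM, 5.52-fold (4.52 to 6.80) lower. Per position where a whole read can begin, these gaps were 10.2-fold and 4.26-fold. Both measures took all annotated exons of a gene, merged. For *Col1a2* these had 12145 nt against 5347 nt in its longest coding mRNA, and for *Col2a1* 6030 against 5104 nt. The order of *Col2a1* and *Col1a2* and the size of the NPC gap depend on that choice. After *Col18a1* the order in ESCs went on with *Col9a2* at 2.04 RPKM, *Col6a1* at 1.76 and *Col2a1* at 1.67 behind *Col5a1*, and in NPCs with *Col1a2* at 3.09, *Col5a1* at 2.54, *Col6a1* at 1.81 and *Col4a5* at 1.25 RPKM. Each of these had an interval that overlapped that of the next gene in its library, and only *Col18a1* stood clear.

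Transcripts of *Col18a1* begin in 2 regions, and the reads could be set against both. The exon at the start of the long form ENSMUST00000072755.4, 1459 nt at chr10:76574963-76576421, had 9 reads in ESCs and 1 in NPCs, or 6.37 (2.91 to 12.1) and 0.708 per 1000 positions. The 2 exons at the start of the short form ENSMUST00000081654.6, only 181 nt with 87 positions for a whole read, had 6 and 1 whole reads, or 69.0 (25.3 to 150.1) and 11.5 per 1000 positions. The first exon shared by the forms, 545 nt at chr10:76558736-76559280, had 306 and 199 reads, or 614.5 (547.5 to 687.3) and 399.6 (346.0 to 459.1) per 1000 positions. In ESCs the exon of the short form thus had more reads per position than that of the long form, with intervals apart, and both lay far below the shared exon. The window printed for exon 2 of *Col18a1* lies in this shared exon and began 44 of its 306 reads in ESCs and 25 of its 199 in NPCs. At the other end, the last exon of 1227 nt held 251 and 231 read starts. The helix of *Col18a1* had 157.4 (129.1 to 190.1) reads per 1000 positions in ESCs, its other coding sequence 215.5 (199.0 to 233.0) and its 3′ UTR 210.1 (182.2 to 241.1), and in NPCs the values were 109.3, 149.0 and 184.3.

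**Figure D4:**
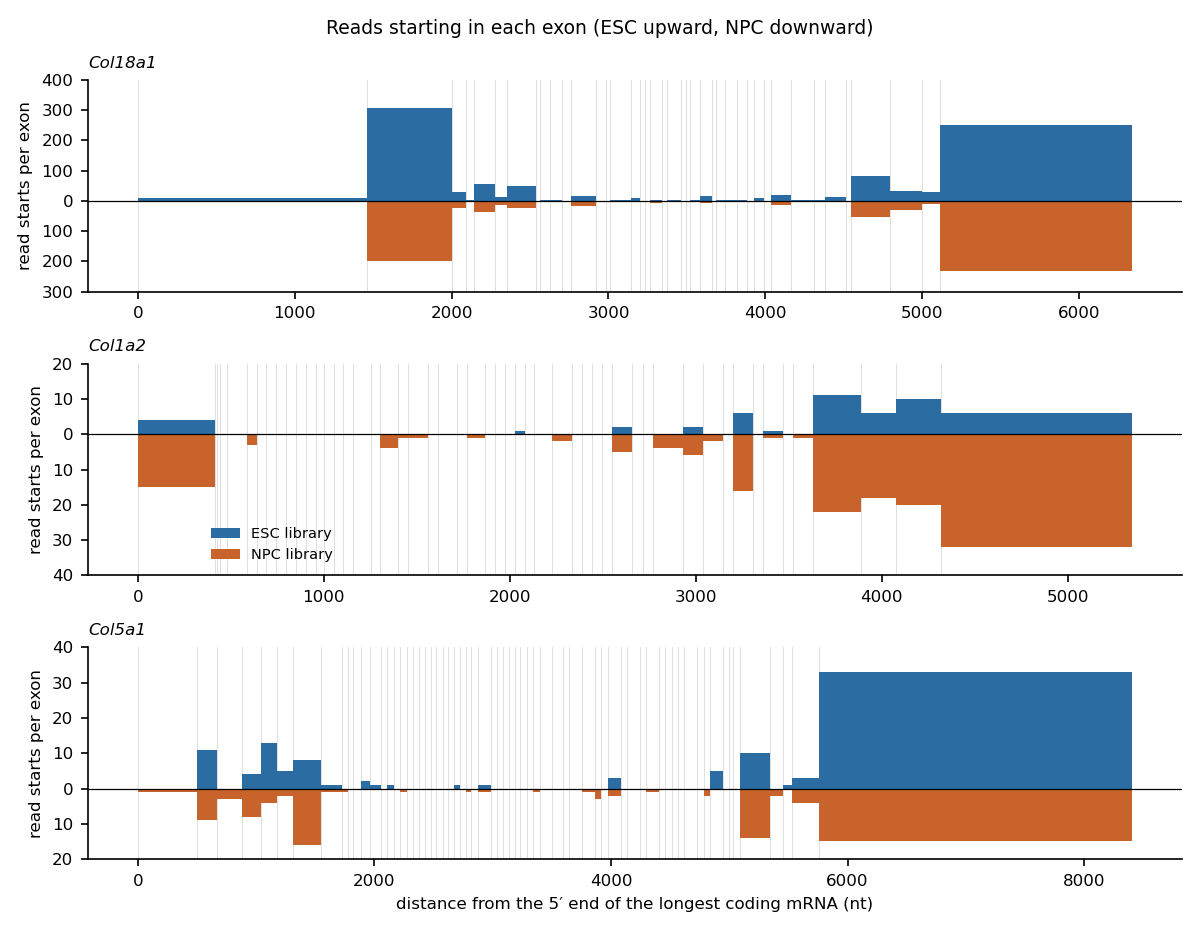
Reads starting in each exon (vertical axis, ESC upward in blue and NPC downward in orange) along the longest coding mRNA (horizontal axis, nt from its 5′ end) of Col18a1, Col1a2 and Col5a1, with exon borders as grey lines and the width of each bar equal to the exon. The second exon of Col18a1 held 306 and 199 starts and its last exon 251 and 231, and the many short helical exons in the middle of Col1a2 and Col5a1 held few.

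Summed over genes, the read density of the helix differed between the libraries. Such sums also depend on which genes had reads. The helix made up 77.1% of the coding sequence of *Col1a2*, which was higher in NPCs, and 8.12% of that of *Col12a1*, which was higher in ESCs. Over the 40 genes without *Col18a1*, the helix had 53 whole reads in ESCs and 131 in NPCs, or 1.72 (1.28 to 2.24) and 4.24 (3.54 to 5.03) per 1000 positions. Coding sequence outside the helix had 319 and 337 reads, or 4.64 (4.15 to 5.18) and 4.91 (4.40 to 5.46), and the 3′ UTRs had 2.35 and 2.31. *Col1a2* supplied 14 and 42 of the helix reads and *Col2a1* 8 and 39. Leaving these out too, the helix had 31 and 50 reads, or 1.08 (0.736 to 1.54) and 1.75 (1.30 to 2.30) per 1000 positions, with intervals that overlap. Other coding sequence then had 4.05 and 3.29. In both libraries the helix thus had fewer reads per possible start than the rest of the coding sequence once these genes were left out. In NPCs *Col1a2* had 36.8 (26.5 to 49.7) reads per 1000 positions in the helix, 109.1 (85.5 to 137.2) in its other coding sequence and 30.0 in the 3′ UTR.

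The share of read starts in the 5′ part of the mRNA, up to its midpoint, was 48.6% (46.0 to 51.1%) in ESCs and 42.2% (39.6 to 44.9%) in NPCs over the 41 genes, where 44.6% of the possible starts lie. Over all protein-coding genes it was 55.7% and 53.6%, with 47.3% of the possible starts. Genes differed widely. *Col1a2* had 14.3% (5.94 to 27.2%) and 20.8% (14.7 to 28.0%) of its starts in this part, with 34.0% of the positions there. *Col2a1* was alike, at 19.5% and 22.2% of starts for 37.2% of positions. *Col9a2* was the lowest of the genes with 10 starts, at 8.00% (0.984 to 26.0%) in ESCs for 33.5% of positions. *Col5a1* went the other way, at 49.5% (39.5 to 59.5%) and 59.1% (48.5 to 69.2%) of starts for 37.6% of positions, as did *Col12a1* at 72.5% and 84.6% for 50.6%.

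Introns of the 41 genes held 470 reads in ESCs and 408 in NPCs, or 22.8% (21.0 to 24.7%) and 22.5% (20.6 to 24.5%) of all reads on the gene strand. Per kilobase, exons had 5.19 and 4.59 reads and introns 0.102 and 0.0885. Reads that crossed an exon border were 113 (7.12%) and 81 (5.77%) of the exon reads. The strand was well kept, as 56 reads in ESCs (3.41%) and 29 in NPCs (2.02%) lay antisense to the exons. Of these, 34 and 15 lay over *Col9a3*, all of them within an exon of *Tcfl5* (chr2:180356661-180377413), a transcription factor gene on the opposite strand with 160 and 78 reads. When both strands were counted, *Col9a3* changed from 0.69 to -0.72 on the log2 scale.

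Genes that act on collagens were read beside them, from lists of 40 genes in all. Of these, 21 were compared, 7 were more than 2-fold higher in NPCs and 6 in ESCs, and the median log2 ratio was 0.59. Over all protein-coding genes compared, the shares were 26.2% for NPCs and 11.6% for ESCs, and the median was 0.40. *Serpinh1*, the chaperone HSP47 that binds procollagen in the endoplasmic reticulum, had 350 and 4298 reads, 11.9-fold (10.7 to 13.3) higher in NPCs. *Sparc*, a matrix protein that binds collagen, had 1151 and 13828 reads, 11.7-fold (11.0 to 12.4) higher in NPCs, and of the binding proteins *Fn1* had the most reads in ESCs, 1815 against 938 in NPCs. *Pcolce*, the enhancer of the proteinase that trims the C-propeptide of fibrillar procollagens, went the other way with 105 and 17 reads, 6.36-fold (3.79 to 11.3) higher in ESCs, and that proteinase, *Bmp1*, had 127 and 265. *Nid1*, which links type IV collagen to laminin, had 639 and 2472 reads, and perlecan (*Hspg2*), another heparan sulphate proteoglycan of basement membranes, 374 and 419.

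Among the collagen receptors, *Ddr1* had 78 and 149 reads, a ratio of 1.85 (1.40 to 2.47), and *Ddr2* 7 and 10, both within 2-fold. *Itgb1*, the beta chain shared by the collagen-binding integrins, had 647 and 2114 reads, a ratio of 3.17 (2.90 to 3.47), and its alpha partners *Itga1*, *Itga2*, *Itga10* and *Itga11* had at most 5 reads in either library. *Mmp2*, a gelatinase, had 160 and 35 reads, 4.71-fold (3.25 to 7.00) higher in ESCs, and its activator *Mmp14* 80 and 113. Of the regulators, *Sox9*, which drives *Col2a1* in cartilage, had 0 and 8 reads, *Sox6* 0 and 11 and *Sox5* 3 and 2.

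Markers of other cell types were read beside the collagen genes as well. The 15 fibroblast markers had 710 reads in ESCs and 348 in NPCs, a ratio of 0.476 (0.417 to 0.542), 6 of the 11 compared were more than 2-fold higher in ESCs and 2 in NPCs, and their median log2 ratio was -1.31. Over all protein-coding genes compared, the shares were 11.6% for ESCs and 26.2% for NPCs. *Fbln1* had 250 and 103 reads, *Thy1* 79 and 12 and *Pdgfrb* 93 and 21, while *Cdh11* had 21 and 80, and *Lum* and *Fap* were at 0 in both. The part of the feeder cells in the reads of the 8 collagen genes higher in ESCs was not tested. Type I collagen, which fibroblasts express, had 51 and 165 reads for *Col1a2* and 20 and 24 for *Col1a1*. The part of the feeder cells in these was not tested either. Cartilage markers were higher in ESCs as well, with 105 and 24 reads over 5 genes and *Acan* at 65 and 11, whereas *Col2a1* was higher in NPCs. Endothelial markers had 512 and 246 reads, a sum that rests mostly on *Pecam1*, which gave 475 and 100. The others did not share its direction throughout. *Cdh5* had 0 and 74 reads, with a lower limit of 19.0 for NPC over ESC, *Kdr* 9 and 29, *Tek* 21 and 43, *Tie1* 7 and 0, and *Emcn* 0 in both.

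**Figure D5:**
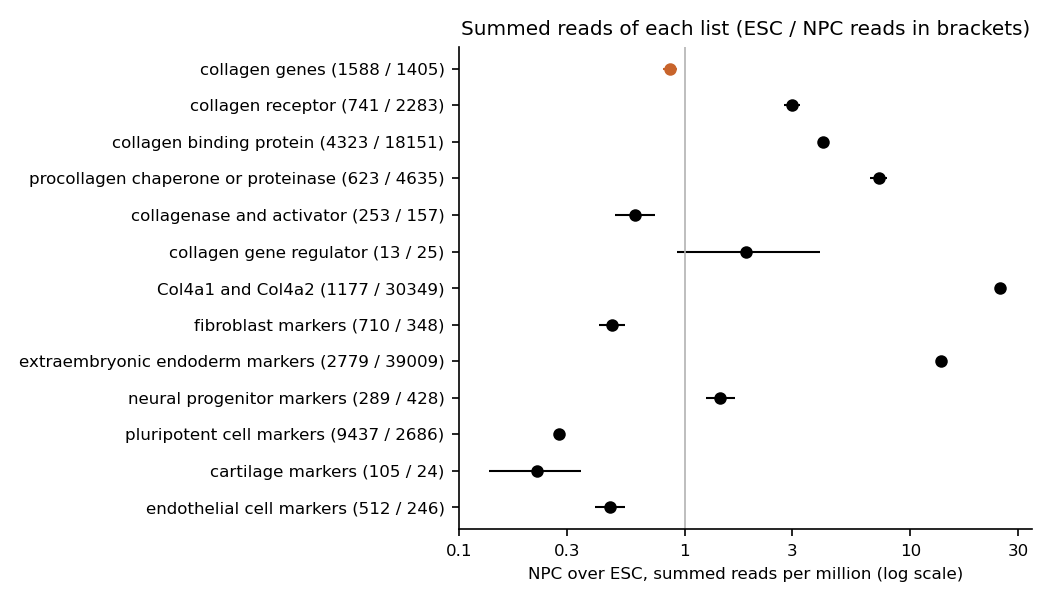
NPC to ESC ratio of summed RPM (horizontal axis, log scale) for the 41 collagen genes (orange) and each partner or marker list (vertical axis, with the reads in ESCs and NPCs in brackets), with conditional binomial 95% intervals. The collagen genes lie at 0.859 (0.799 to 0.923), and at 0.661 to 0.685 under the other scalings, which are not drawn. The lists run from the cartilage markers at 0.222 to *Col4a1* and *Col4a2* at 25.0.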

How the data were processed

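The authors sequenced NPA RNA on SOLiD and used Bowtie, unspliced, to place the reads on mm9, keeping 1 placement each. They removed those on the mitochondrial genome, on ribosomal sequences and in repeats. The deposited files hold the position, strand and 48 nt of sequence of each read, 1 line per read. Libraries were made from 2 µg of RNA with 15 PCR cycles and fragments of 150 to 250 bp. From these positions, reads on the gene strand overlapping an exon by at least 1 base were counted for every GENCODE M1 gene, scaled by the library total, and log2 ratios took 1 read added in each library. Genes with at least 10 reads in both libraries together were compared, and called when more than 2-fold apart. Exon models used the longest coding transcript, whereas counts, RPKM and levels per position of a gene used all its annotated exons, merged. No test was made, as each cell type has 1 library. Members, classes, partner and marker lists were chosen with earlier results of these data known. Every member is named. Partner or marker genes were to be named by most reads or by being more than 4-fold apart with at least 100 reads. Not every marker that met this rule is named, and other genes were named after their values were seen. Where a symbol had several gene IDs, that with most reads was used. Alternatives varied the scaling, duplicates, added reads, minimum, overlap rule, uniqueness and strand. Counting was tested on simulated data. Python 3.11.15, NumPy 2.4.6, SciPy 1.17.1, pandas 2.3.3, numba 0.67.0, pysam 0.24.0 and matplotlib 3.10.9 were used.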

Additional observations from a re-analysis of the deposited data

How the results depend on the processing

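No paired analysis was possible because each cell type has 1 library. Recomputed counts, medians and shares stayed within the error 37 times, moved 15 times and reversed 0 times. Single-gene values stayed 227 times, moved 10 times, all of them for *Col13a1* or *Col18a1*, and 0 called genes changed direction. *Col13a1* has no interval for its ratio, and a change as small as from -3.95 to -3.94 on the log2 scale was counted as moved. Summed ratios of NPC to ESC moved 11 times and reversed 4 times. Without *Col18a1*, the ratio of 1.14 became 0.892, 0.881 and 0.913 under the median of ratios, the trimmed mean and the coding-exon scaling, and 0.920 with each start counted once. The intervals of 0.913 (0.816 to 1.02) and 0.920 (0.812 to 1.04) span 1. For all members the ratio of 0.859 became 0.670, 0.661 and 0.685 under the same scalings. Sums of a class or of all members without their leading genes were chosen after seeing the data. The number of collagen genes more than 2-fold higher in NPCs fell from 4 to 2 when scaled by the median of ratios or by the trimmed mean, and also, in a setting chosen after seeing the data, among genes with 10 to 99 reads. The number higher in ESCs was 15 with a minimum of 1 read and 2 with a minimum of 50. The intron share became 31.0% in ESCs and 28.1% in NPCs when each start was counted once, and 30.3% and 25.9% without *Col18a1*, a setting added after seeing the data. The 5′ share in ESCs was 44.7% with each start counted once, and 44.0% in ESCs and 37.4% in NPCs without *Col18a1*. Ending the 5′ part at the third of the mRNA nearest its start gave 34.9% and 30.7% of the starts, for 32.2% of the positions. The gap between *Col18a1* and the next gene in NPCs was 4.26-fold per position. The cause of these shifts was not tested, except that a shorter 5′ part holds fewer positions and a higher minimum leaves fewer genes. Counts under about 50 reads limit what can be said of most members.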

Other observations

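Introns held more reads than exons for some collagen genes with few exon reads. *Col22a1* had 24 intron reads in ESCs and 10 in NPCs against 2 and 3 exon reads, *Col20a1* 25 and 20 against 17 and 3, *Col24a1* 8 and 4 against 2 and 0, *Col4a6* 6 and 11 against 0 and 1, and *Col27a1* in NPCs 28 against 19.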
